A study of Rattus norvegicus with 20 samples.

Results

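The germ cell identity genes described here are Kit, Sall4, Tfap2c, Nanos3, Prdm1, Sox2, Sox15, Alpl and Ifitm3, 9 of the 14217 genes that have a probe set annotated to them alone on the rat expression array. They were taken by symbol, as all probe sets that the platform annotation gives to these names, which came to 12 of 31042 probe sets without controls. Sox2 had 4 probe sets and every other gene had 1. Of the 12 probe sets, 11 were tested, and the lead probe set of each gene, that of highest mean signal, was among them. The untested one, a Sox2 probe set, read 0.4 to 5.5 on all 20 arrays.

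RNA of embryonic testes of Sprague-Dawley rats was hybridized to 20 arrays in 10 groups of 2. Vinclozolin, a fungicide whose metabolites block the androgen receptor, was injected into pregnant dams at 100 mg/kg per day in DMSO on embryonic days 8 to 14, and the other dams received DMSO alone. Testes were taken at E13, E14 and E16, so that the E13 embryos were collected while the injections were still running and the E16 embryos after they had ended. The in utero groups were E13, E14 and E16 vinclozolin and E13, E14 and E16 vehicle. In the culture groups, E13 gonads with their mesonephros were kept for 3 days on filters, and RNA came from the testes alone, cleared of mesonephros. For the in utero groups the labels do not state such a step. These groups were vinclozolin culture at 50 µM with DMSO culture as its vehicle, and flutamide culture at 0.5 µM with ethanol culture as its vehicle. In each, the opposite gonad of a pair received the vehicle. Flutamide is a drug that blocks the androgen receptor. The samples were whole gonads, in which germ cells are a minority, and fewer germ cells cannot be told apart from less RNA per germ cell. The 2 arrays of each group are labelled as biological replicates, but whether animals were pooled for them is not stated. Every p-value here therefore reflects array-to-array spread, part of which may be technical.

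Primordial germ cells are the embryonic precursors of sperm and eggs. In the mouse, they are set aside before the gonads exist, under Prdm1 and Tfap2c, transcription factors that shut down the somatic programme. They keep parts of the pluripotency network, among them Sall4, Sox2 and Sox15, while they migrate to the gonad, and they depend on Kit, the receptor for stem cell factor made by the surrounding somatic cells from Kitlg. Nanos3 is an RNA-binding protein that protects migrating germ cells from cell death. Alpl, tissue-nonspecific alkaline phosphatase, gives the classical histochemical stain of these cells, and Ifitm3, an interferon-induced membrane protein also known as fragilis, marks the cells competent to become germ cells. In the fetal testis the male germ cells stop dividing and lower their pluripotency genes. Most of these genes are not restricted to germ cells. Kit is also used by melanocytes and mast cells, Sox2 by neural progenitors and glia, Alpl by bone and kidney, and Ifitm3 by many somatic cells.

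Promoter sequences were at hand for 7 of the 9 genes, all but Sall4 and Tfap2c, and were taken from RefSeq in the GRCr8 build. They were searched for the palindrome GCCNNNGGC, which proteins of the family of Tfap2c recognise, and for the octamer ATGCAAAT of the pluripotency factor Pou5f1, on both strands in the 250 bases before the start that the promoter table gives. For Kit and Nanos3 that start lies inside the gene as RefSeq annotates it, so that the window of Kit is partly and that of Nanos3 wholly within the gene. The palindrome occurred in 3 of the 7, with 1 match in Kit, 1 in Nanos3 and 3 in Alpl, against 12.6% of all 33469 promoters searched in windows of the same length. The octamer occurred in 0 of the 7, against 1.6% of all promoters. A match is only a run of letters and does not show that a protein binds there. The 3 promoters with a match are shown with those of Sox2 and Ifitm3, which hold none and whose signals differed widely between days or in culture. They are written 5′ to 3′ on the strand of the gene, and the capitals mark GCCNNNGGC.
Kit, chr14:32978813-32979062, minus strand: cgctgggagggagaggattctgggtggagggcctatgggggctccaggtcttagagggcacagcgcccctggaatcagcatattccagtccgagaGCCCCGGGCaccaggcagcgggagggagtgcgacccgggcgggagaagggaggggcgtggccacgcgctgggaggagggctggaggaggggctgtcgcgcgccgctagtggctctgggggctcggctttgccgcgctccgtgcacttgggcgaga
Nanos3, chr19:40890022-40890271, plus strand: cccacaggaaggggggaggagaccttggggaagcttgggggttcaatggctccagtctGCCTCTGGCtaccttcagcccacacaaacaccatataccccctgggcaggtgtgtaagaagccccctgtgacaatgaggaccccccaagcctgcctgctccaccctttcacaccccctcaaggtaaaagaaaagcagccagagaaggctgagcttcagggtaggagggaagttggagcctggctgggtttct
Alpl, chr5:155289786-155290035, minus strand: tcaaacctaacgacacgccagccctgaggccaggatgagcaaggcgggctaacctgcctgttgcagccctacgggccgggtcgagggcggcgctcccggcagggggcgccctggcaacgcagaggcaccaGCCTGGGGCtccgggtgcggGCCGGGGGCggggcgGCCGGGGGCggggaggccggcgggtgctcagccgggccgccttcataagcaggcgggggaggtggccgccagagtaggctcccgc
Sox2, chr2:119464881-119465130, plus strand: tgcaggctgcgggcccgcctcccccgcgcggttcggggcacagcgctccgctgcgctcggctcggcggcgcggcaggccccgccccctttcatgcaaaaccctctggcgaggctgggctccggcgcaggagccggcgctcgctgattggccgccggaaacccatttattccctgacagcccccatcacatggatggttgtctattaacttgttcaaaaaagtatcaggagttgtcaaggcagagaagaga
Ifitm3, chr1:205541759-205542008, minus strand: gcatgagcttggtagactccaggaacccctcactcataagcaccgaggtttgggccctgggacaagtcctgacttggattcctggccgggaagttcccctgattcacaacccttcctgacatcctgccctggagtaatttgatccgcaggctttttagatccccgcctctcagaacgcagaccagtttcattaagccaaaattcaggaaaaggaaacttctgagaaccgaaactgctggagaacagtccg
The share of G and C in these windows was 70.8% for Kit, 58.4% for Nanos3, 76.0% for Alpl, 64.4% for Sox2 and 52.0% for Ifitm3.

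Signals are given as intensity after all arrays were scaled to the trimmed mean of the in utero arrays, and differences as log2(intensity + 16). On this scale the 40th percentile of an array, used here as the mark of a low signal, ran from 31.6 to 42.1 on the in utero arrays, from 38.1 to 39.5 for the vinclozolin culture set and from 52.0 to 60.3 for the flutamide culture set. The identity genes were dim for the most part. Ifitm3 and Prdm1 reached the 40th percentile on all 20 arrays, Sox2 on 19, Sall4 on 17, Nanos3 on 14, Tfap2c on 13, Sox15 on 12, and Kit and Alpl on 10. In utero, a member lay under that mark on both arrays of a group only once, Kit in E16 vehicle. In culture this was the case for 4 of 9 members with vinclozolin and 5 with DMSO, and for 5 with flutamide and 3 with ethanol.

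Some arrays stood apart. E14 vehicle replicate 1 had lower signals of Sertoli cell genes than the other 3 E14 arrays, among them Amh at 1553.9 against 4892.7 to 5795.6, and was the highest E14 array for all 9 tested genes of the mesonephros and its tubules and for all 3 tested erythroid genes. Its Fos signal was 1534.6, against 18.3 to 289.2 on the other E14 arrays. Fos was higher still in the flutamide culture set, at 1911.5 to 2530.7. It was 21.6 to 81.3 at E13, at E16 and in the vinclozolin culture set. The E13 arrays numbered 1 carried Xist, the RNA of an inactive X chromosome, at 896.0 with vinclozolin and 758.6 with vehicle, against 17.9 and 20.4 on those numbered 2. Xist was also at 489.9 on E14 vinclozolin replicate 2, 174.9 and 184.4 on the E14 vehicle arrays, 108.7 on vinclozolin culture replicate 2, and 330.1 to 415.9 in the flutamide culture set. On the other arrays it was 2.4 to 32.0. Xist and Eif2s3y, a gene of the Y chromosome, were read as checks of the sex of the tissue. Eif2s3y was 902.6 to 1248.9 on the E14 arrays, against 2363.1 to 3495.6 at E13 and E16. It was 1311.7 to 1501.1 in the flutamide culture set, against 3000.8 to 3208.1 in the vinclozolin culture set. Whether some samples held female tissue was not tested. Degraded RNA raises the 3′ to 5′ ratio of beta-actin, which was 9.08 to 11.1 in the flutamide culture set, against 1.73 to 3.90 on the other arrays. Where leaving out 1 of these arrays changes a call of a member between days, the adjusted p without it, or the highest of several, is given. The flutamide culture set has no array with a low ratio, so its comparisons cannot be given without such arrays.

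**Figure D1:**
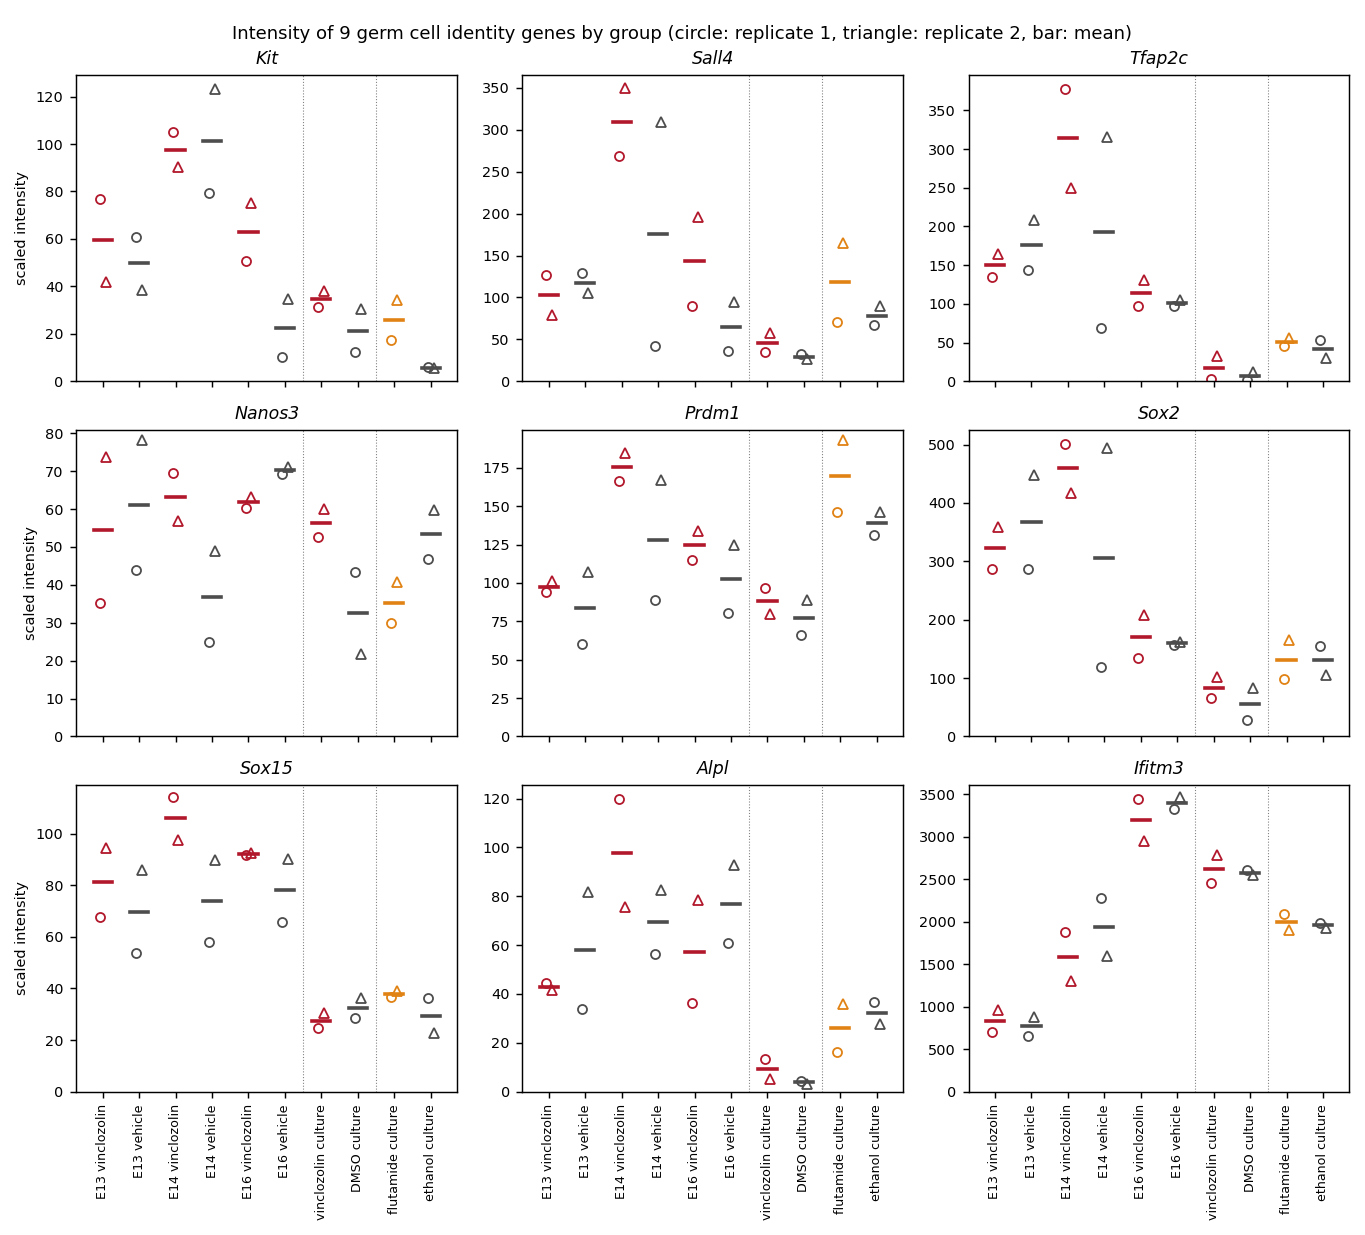
Scaled intensity (linear axis from 0) of the lead probe set of each gene in the 10 groups, with circles for replicate 1, triangles for replicate 2 and bars for the mean of 2 arrays; red marks vinclozolin, orange flutamide and grey the vehicles. Ifitm3 climbs with stage, and Tfap2c is highest at E14 apart from the low circle of E14 vehicle replicate 1. Every gene but Ifitm3 has its lowest mean in a culture group, which overlaps with in utero arrays for Prdm1 and Nanos3.

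The 3 collection days give the course of the identity genes in utero, with the vinclozolin and vehicle groups of each day averaged (4 arrays a day). Ifitm3 rose on each later day, Kit rose at E14 and fell at E16, and Tfap2c and Sox2 fell between E14 and E16. Between E13 and E14, 3 of 9 members rose and 0 fell, in a comparison where 24.2% of the 22526 tested probe sets passed the threshold in either direction and 12.5% were higher. Between E14 and E16, 1 member rose and 3 fell, against 40.5% of probe sets passing, 17.9% higher and 22.6% lower. Between E13 and E16, 1 member rose and 0 fell, where 18% of probe sets passed, 9.04% higher and 8.96% lower. The median difference of the 9 members was 0.60 at E14 against E13 and -0.35 at E16 against E14, beside 0.07 and -0.06 over all tested probe sets.

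Of the factors that specify the lineage, Prdm1 read 93.9 and 101.1 with vinclozolin and 60.5 and 107.3 with vehicle at E13. At E14 it read 166.6 and 184.9 with vinclozolin and 88.9 and 167.3 with vehicle, and at E16 it read 115.2 and 134.1 with vinclozolin and 80.7 and 125.0 with vehicle. Its 2 E14 vinclozolin arrays and E14 vehicle replicate 2 lay above every array of E13 and E16. Prdm1 rose at E14 by 0.63 (SE 0.20, n = 4 and 4, adjusted p = 0.0283), a call that was lost when any of 6 of the 8 arrays was left out (adjusted p of up to 0.137). At E16 it differed from E14 by -0.35 (adjusted p = 0.175), and by -0.55 without E14 vehicle replicate 1 (adjusted p = 0.039).

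Tfap2c read 135.0 and 164.8 with vinclozolin and 143.5 and 207.9 with vehicle at E13. At E14 it read 377.4 and 249.8 with vinclozolin and 69.4 and 315.7 with vehicle, and at E16 it read 97.7 and 131.3 with vinclozolin and 97.6 and 105.3 with vehicle. The E16 arrays were all below the E13 arrays, and 3 of the 4 E14 arrays were above both. Tfap2c fell at E16 against E14 by 0.92 (SE 0.35, adjusted p = 0.046). The call was lost without any of the 4 E16 arrays, without E14 vehicle replicate 2 or without E14 vinclozolin replicate 1 (adjusted p of up to 0.282), and was clearer without E14 vehicle replicate 1 (-1.41, adjusted p = 0.00182). Against E13, E14 differed by 0.40 (adjusted p = 0.439) and by 0.89 without that array (adjusted p = 0.0448).

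Among the pluripotency factors, Sall4 read 127.3 and 79.2 with vinclozolin and 129.1 and 105.7 with vehicle at E13. At E14 it read 269.0 and 349.8 with vinclozolin and 42.1 and 309.0 with vehicle, and at E16 it read 89.8 and 196.4 with vinclozolin and 35.6 and 94.9 with vehicle. Apart from E14 vehicle replicate 1, every E14 array was above every E13 and E16 array. With all arrays the difference of E14 from E13 was 0.76 (SE 0.41, adjusted p = 0.192) and that of E16 from E14 -0.98 (adjusted p = 0.0661). Without E14 vehicle replicate 1 they were 1.38 (adjusted p = 0.00734) and -1.61 (adjusted p = 0.00121), so that 1 array decided the first call. The second also passed without E16 vehicle replicate 2 (-1.26, adjusted p = 0.0408) or E16 vinclozolin replicate 2 (-1.24, adjusted p = 0.0469).

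The lead probe set of Sox2 read 286.0 and 359.6 with vinclozolin and 286.8 and 447.3 with vehicle at E13. At E14 it read 501.6 and 417.2 with vinclozolin and 118.5 and 493.5 with vehicle, and at E16 it read 133.9 and 208.2 with vinclozolin and 157.3 and 161.6 with vehicle. All 4 E16 arrays were below all E13 arrays. Sox2 fell at E16 against E14 by 0.97 (SE 0.34, adjusted p = 0.0287) and differed from E13 by -0.99 (SE 0.34, adjusted p = 0.0514), or by -1.14 without E13 vehicle replicate 1 (adjusted p = 0.0495). The first call was lost without E14 vehicle replicate 2, without E14 vinclozolin replicate 1, without E16 vinclozolin replicate 1 or without either E16 vehicle array (adjusted p of up to 0.181).

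The annotation gives no target transcript for that lead probe set, and the other tested Sox2 probe sets bear on the result. They were dim. The second of them read 86.3 and 38.7 with vinclozolin and 54.5 and 3.2 with vehicle at E13, 123.2 and 85.7 with vinclozolin and 23.5 and 113.7 with vehicle at E14, and 4.6 to 6.0 at E16. It fell at E16 against E14 by 2.13 (SE 0.41, adjusted p = 0.000609) and against E13 by 1.31 (adjusted p = 0.0323). The other one, which read 9.2 to 55.8 at E13, 28.6 to 103.7 at E14 and 20.2 to 40.1 at E16, fell at E16 against E14 by 0.98 (SE 0.32, adjusted p = 0.0216) and differed from E13 by -0.12 (adjusted p = 0.839). All 3 tested probe sets of Sox2 were thus lower at E16 than at E14.

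Sox15, a relative of Sox2, read 53.7 to 94.5 at E13, 58.1 to 114.2 at E14 and 65.9 to 92.4 at E16, and its stages overlapped. Its differences between stages lay between -0.05 and 0.21, with adjusted p-values of 0.456 to 0.866.

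The receptor gene Kit was at 77.0 and 41.8 with vinclozolin and 61.0 and 38.6 with vehicle at E13. At E14 it was at 105.1 and 90.2 with vinclozolin and 79.3 and 123.4 with vehicle, and at E16 at 50.5 and 75.2 with vinclozolin and 10.2 and 34.8 with vehicle. The E14 arrays did not overlap with those of either other day. Kit rose at E14 by 0.73 (SE 0.26, adjusted p = 0.0486) and fell at E16 by 1.10 (SE 0.26, adjusted p = 0.00281). The rise was lost without either E14 vinclozolin array, without E14 vehicle replicate 2, or without the second E13 array of either treatment (adjusted p of up to 0.19). The fall remained without each array in turn (adjusted p of up to 0.0178). In the vehicle arrays alone it was -1.66, and in the vinclozolin arrays alone -0.54 (adjusted p = 0.298).

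Kitlg, which encodes the ligand of Kit, ran at 547.8 to 745.3 at E13, 202.0 to 398.7 at E14 and 227.5 to 366.2 at E16. The E13 arrays lay above all others in utero, and Kitlg fell at E14 by 1.08 (SE 0.19, adjusted p = 0.000812). The ligand was thus higher on the day before Kit reached its highest signal.

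The RNA-binding gene Nanos3 stayed between 24.8 and 78.1 on all 12 in utero arrays, close to the mark of a low signal. Its E16 arrays lay within 60.4 to 71.2. It differed by -0.16 at E14 against E13 (adjusted p = 0.642) and by 0.36 at E16 against E14 (adjusted p = 0.216).

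Of the surface markers, Alpl read 44.3 and 41.5 with vinclozolin and 34.0 and 81.9 with vehicle at E13. At E14 it read 119.7 and 75.4 with vinclozolin and 56.4 and 82.7 with vehicle, and at E16 it read 36.4 and 78.3 with vinclozolin and 60.9 and 92.9 with vehicle. The days overlapped, and the difference of 0.60 at E14 against E13 did not pass (SE 0.26, adjusted p = 0.107), though it did without E13 vehicle replicate 2 (0.84, adjusted p = 0.0384).

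Ifitm3 was by far the brightest member. It read 707.8 and 958.4 with vinclozolin and 660.9 and 876.7 with vehicle at E13. At E14 it read 1877.3 and 1303.1 with vinclozolin and 2274.6 and 1594.2 with vehicle, and at E16 it read 3446.2 and 2956.5 with vinclozolin and 3328.4 and 3469.3 with vehicle. The 3 days did not overlap. Ifitm3 rose by 1.11 from E13 at E14 (SE 0.14, adjusted p = 0.00013), by 0.93 from E14 at E16 (adjusted p = 9.29e-05), and by 2.03 over the whole interval (SE 0.14, adjusted p = 5.05e-08). These calls held without each array in turn, the highest adjusted p being 0.000981. Its relatives Ifitm1 and Ifitm2 were higher at E16 as well. Ifitm1 rose at E16 against E14 by 1.04 (adjusted p = 0.00104) and Ifitm2 by 0.33 (adjusted p = 0.0415).

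**Figure D2:**
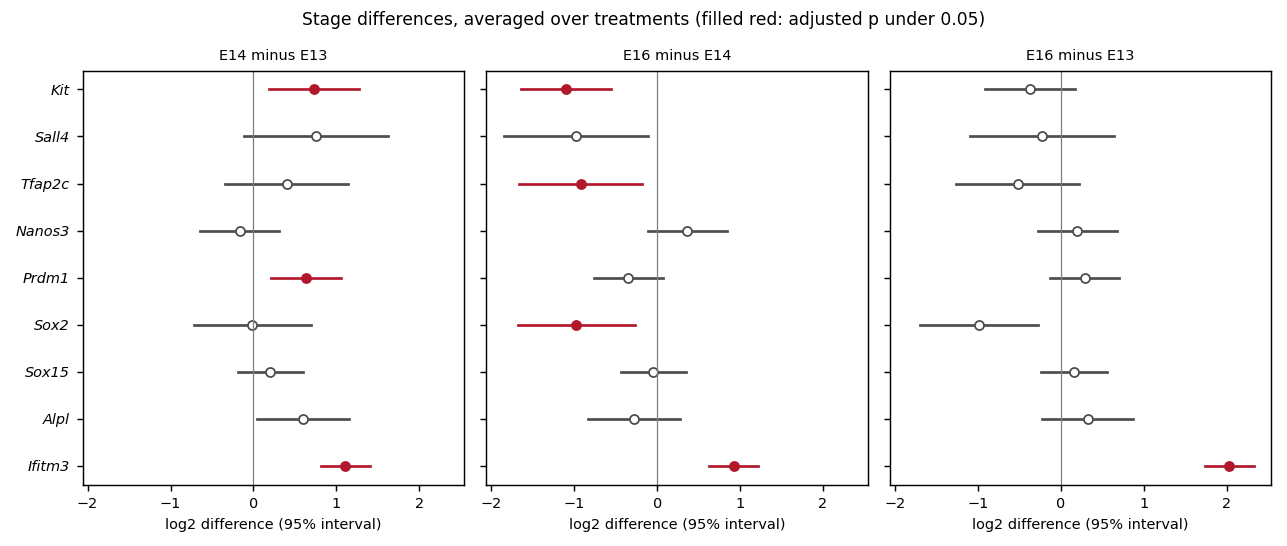
Log2 difference (point) with its 95% interval (line) for each member between the days, averaged over vinclozolin and vehicle (4 arrays a day); filled red points passed an adjusted p of 0.05. Ifitm3 lies to the right in all 3 panels, at 1.11, 0.93 and 2.03, while Kit is at 0.73 in the first panel and -1.10 in the second, where Sox2 and Tfap2c are also to the left of 0.

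E14 vehicle replicate 1 was the lowest E14 array for 8 of 9 members, the exception being Ifitm3, for which it was the highest. Among the other germ cell genes it was the lowest for 10 of 15 and the highest for 4. It was also the lowest for 7 of 8 Sertoli cell genes and 4 of 5 endothelial genes, and the highest for all 9 mesonephric and tubule genes and all 3 surface epithelial genes. At E13, the arrays numbered 1 were lower than those numbered 2 in both treatments for 6 of 9 members and 8 of 15 other germ cell genes. Kit and Sall4 were higher on them in both treatments. The arrays numbered 1 were also lower in both for 5 of 8 Sertoli cell genes, 10 of 21 partners and targets and all 3 erythroid genes. For mesonephric and tubule genes this was 1 of 9. The shares over all probe sets were not computed. Whether the makeup of these samples bears on the members was not tested. Without the 2 E13 arrays numbered 1 and E14 vehicle replicate 1, Sall4 rose at E14 by 1.59 (adjusted p = 0.0101) and Sox2 fell at E16 against E13 by 1.22 (adjusted p = 0.0135).

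Markers of other cells moved over the same days. Of 8 tested neural and sympathetic genes, 4 fell and 0 rose at E16 against E14. Their summed signal was 342.9 to 736.7 at E14 and 218.1 to 281.4 at E16, and that of Sox10, which marks neural crest, was 44.2 to 117.7 at E14 and 5.2 to 22.1 at E16. Of 9 mesonephric and tubule genes, 8 fell, and of 8 Sertoli cell genes, 5 fell and 2 rose. All 6 Leydig cell genes and all 3 erythroid genes rose, and of 5 endothelial genes 3 fell. Of 3 surface epithelial genes, 2 rose. Of 2 tested melanocyte genes, 1 fell and 0 rose at E14 against E13, and likewise at E16 against E14. The melanocyte gene Dct, whose cells also use Kit, read 340.5 to 490.1 at E13, 90.1 to 151.1 at E14 and 41.5 to 99.9 at E16. Pmel, the other tested melanocyte gene, read 58.7 to 104.4 at E14. Cpa3, the tested mast cell gene, read 12.2 to 20.7 at E13, 18.7 to 33.4 at E14 and 38.9 to 63.4 at E16. No tested marker was at 0 on any array, which does not show that each was detected. Some signals lay far under the mark of a low signal. The tubule gene Cdh16 read 1.6 on E16 vehicle replicate 1. The Leydig cell gene Cyp17a1 read 1.7 on E13 vinclozolin replicate 1, and Sox10 read 5.2 on E16 vinclozolin replicate 2. The lowest Sertoli cell signal, Dhh at 56.3 on E13 vehicle replicate 1, was above that mark. The part of the marked cell types in the courses of Sox2, Tfap2c and Kit was not tested.

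Of the 43 other germ cell genes listed, 17 had a probe set of their own and 15 were tested, and at E16 against E14, 6 rose and 4 fell, with a median of 0.47. Sycp3, a component of the meiotic chromosome axis, read 57.5 to 167.4 at E13, 52.5 to 84.1 at E14 and 540.2 to 1065.2 at E16, and rose by 3.07 (SE 0.33, adjusted p = 5.16e-06). Smc1b, a meiotic cohesin subunit, rose by 1.84 (adjusted p = 7.13e-05). Asz1, which acts in the silencing of transposons, read 39.9 to 71.6 at E13, 30.5 to 94.5 at E14 and 151.0 to 473.2 at E16, and rose by 1.99 (adjusted p = 0.000262). Tfcp2l1, a factor of the naive pluripotent state, fell by 1.13 (adjusted p = 0.000262). E14 vehicle replicate 1 was its highest E14 array, at 156.2 against 71.9 to 91.4, and the call was not tested without it. Whether the makeup of that sample bears on the fall of Tfcp2l1 was not tested either. Other germ cell genes were thus both higher and lower at E16. Tdrd1 and Piwil2, which act in the piRNA pathway, differed by 0.47 (adjusted p = 0.297) and by 0.32 (adjusted p = 0.207). Pou5f1, Nanog, Dppa3, Ddx4, Dazl and Dnd1 were among the 43 listed but not among the 15 tested, so no result is given for them.

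At E14 against E13, 2 other germ cell genes rose and 0 fell. Cdh1, the adhesion protein E-cadherin, rose by 0.54 (adjusted p = 0.0471), and Tdrd7, a Tudor domain protein of germ granules, by 0.41 (adjusted p = 0.0298). E14 vehicle replicate 1 was the highest E14 array for both, with Cdh1 at 328.1 against 228.0 to 266.7 and Tdrd7 at 231.0 against 152.1 to 193.7, and these calls were not tested without it. Of the niche genes 5 rose and 2 fell, with Fgfr1 higher by 0.70 (adjusted p = 0.000349). Of the partners and targets 5 rose and 3 fell, and the pluripotency factors Klf4 and Klf5 rose by 0.97 (adjusted p = 0.00053) and by 0.90 (adjusted p = 0.00105).

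Of 18 tested genes of the niche and signalling of germ cells, 0 rose and 9 fell at E16 against E14. Fgfr1, a receptor of fibroblast growth factors, fell by 1.14 (adjusted p = 1.15e-06) and Bmp7, a ligand of the BMP family, fell by 1.06 (adjusted p = 9.63e-05). Cyp26b1, the enzyme that degrades retinoic acid in the fetal testis, read 1030.0 to 3542.4 at E14 and 556.5 to 814.5 at E16 and fell by 1.75 (adjusted p = 0.00016). The chemokine receptor gene Cxcr4 fell by 0.79 (adjusted p = 0.000574).

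Of 21 tested partners and targets of the member factors, 3 rose and 15 fell. Etv5 and Etv4, targets of fibroblast growth factor signalling, fell by 1.84 (adjusted p = 9.8e-06) and fell by 1.61 (adjusted p = 3.13e-06). Dusp6, which restrains the same pathway, fell by 0.88 (adjusted p = 1.22e-05), and Mycn, a proto-oncogene, fell by 0.90 (adjusted p = 3.87e-05).

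The cultures ask how the identity genes stand after 3 days outside the embryo, against the E13 testes they began as and against E16 testes of the same embryonic age. Tfap2c, Sox2 and Sox15 were lower than at E13 in both vehicle cultures, Alpl in DMSO culture and Kit in ethanol culture, while Ifitm3 was higher in both. Culture and array set cannot be told apart in these comparisons, since the deposited values of each culture experiment have a scaling target of their own. In DMSO culture against E13 vehicle, 1 of 9 members rose and 4 fell, where 20.5% of tested probe sets passed in either direction, 10.2% higher and 10.3% lower. In ethanol culture against E13 vehicle, 1 rose and 4 fell, where 31.9% passed, 19% higher and 12.9% lower. Both comparisons use the same E13 vehicle arrays, so their counts are not independent of each other. The member median was -0.84 in DMSO culture and -0.54 in ethanol culture, beside 0.02 and 0.14 over all tested probe sets.

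Tfap2c read 1.5 and 11.5 in DMSO culture and 53.6 and 29.8 in ethanol culture, against 143.5 and 207.9 in E13 vehicle. The cultures and E13 did not overlap. Tfap2c fell by 3.11 in DMSO culture (SE 0.50, n = 2 and 2, adjusted p = 0.000491) and by 1.74 in ethanol culture (SE 0.50, adjusted p = 0.0145). The DMSO arrays lay under the 40th percentile, so the size depended on the pseudocount, from -4.95 with 1 to -1.76 with 64. The call in DMSO culture held without each array in turn (adjusted p of up to 0.00721), and that in ethanol culture was lost without E13 vehicle replicate 2 or ethanol culture replicate 2 (adjusted p of up to 0.113).

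The lead probe set of Sox2 read 27.8 and 82.7 in DMSO culture and 155.1 and 105.6 in ethanol culture, against 286.8 and 447.3 in E13 vehicle. It fell by 2.51 in DMSO culture (SE 0.48, adjusted p = 0.00169) and by 1.38 in ethanol culture (SE 0.48, adjusted p = 0.0362). The other tested Sox2 probe sets, dim from the start, did not pass. That with 4.6 to 6.0 at E16 differed by -0.73 in DMSO culture (adjusted p = 0.403) and by -0.27 in ethanol culture (adjusted p = 0.741). The other differed by -0.50 in DMSO culture (adjusted p = 0.465) and by -0.36 in ethanol culture (adjusted p = 0.558). The fall of Sox2 in culture thus rests on 1 probe set. In ethanol culture it was lost without any of E13 vehicle replicate 2 and the 2 ethanol arrays (adjusted p of up to 0.193).

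Alpl read 4.4 and 3.2 in DMSO culture and 36.7 and 27.7 in ethanol culture, against 34.0 and 81.9 in E13 vehicle. The DMSO arrays were far below those of E13, while the ethanol arrays overlapped with them. Alpl fell by 1.82 in DMSO culture (SE 0.37, adjusted p = 0.00273), a value that ran from -3.50 with a pseudocount of 1 to -0.82 with 64, and held without each array in turn. In ethanol culture it differed by -0.54 (adjusted p = 0.271).

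Sox15 read 28.5 and 36.3 in DMSO culture and 36.1 and 22.6 in ethanol culture, against 53.7 and 85.7 in E13 vehicle. It lay below the 40th percentile on all 8 culture arrays. Sox15 fell by 0.80 in DMSO culture (SE 0.26, adjusted p = 0.0399) and by 0.91 in ethanol culture (adjusted p = 0.0156). The first call was lost without either DMSO array, and leaving out E13 vehicle replicate 2 ended both, with adjusted p = 0.303 for DMSO and 0.156 for ethanol. Leaving out ethanol culture replicate 2 also ended the second.

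Kit read 12.2 and 30.2 in DMSO culture and 6.1 and 5.5 in ethanol culture, against 61.0 and 38.6 in E13 vehicle. It fell by 1.57 in ethanol culture (SE 0.36, adjusted p = 0.0043), in each fit without 1 array too (adjusted p of up to 0.0432), and its size ran from -2.87 with a pseudocount of 1 to -0.70 with 64. In DMSO culture it differed by -0.84 (adjusted p = 0.112). Kitlg, in contrast, read 788.1 and 929.3 in DMSO culture, above its E13 vehicle values of 723.6 and 547.8. In ethanol culture it read 624.1 and 711.5, between those values.

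Sall4 read 32.3 and 26.0 in DMSO culture and 67.3 and 89.3 in ethanol culture, against 129.1 and 105.7 in E13 vehicle. Its values in both cultures lay below those of E13, but the differences of -1.56 in DMSO culture (SE 0.58, adjusted p = 0.0671) and -0.50 in ethanol culture (adjusted p = 0.526) did not pass. Prdm1 differed by -0.07 (adjusted p = 0.89) and by 0.67 (adjusted p = 0.0774), and Nanos3 by -0.66 (adjusted p = 0.154) and by -0.12 (adjusted p = 0.8).

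Ifitm3 read 2603.5 and 2552.1 in DMSO culture and 1989.8 and 1931.7 in ethanol culture, against 660.9 and 876.7 in E13 vehicle. It rose by 1.74 in DMSO culture (SE 0.20, adjusted p = 2.92e-05) and by 1.35 in ethanol culture (adjusted p = 0.000174), and the highest adjusted p without 1 array was 0.00371. Relative to the median of all probe sets in ethanol culture, 0.14 above E13 vehicle, Ifitm3 was higher by 1.20, and Kit, Tfap2c, Sox2 and Sox15 stood at -1.72, -1.88, -1.52 and -1.05.

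Against E16 vehicle, 0 of 9 members rose and 4 fell in DMSO culture, where 21.9% of tested probe sets passed, 12% higher and 9.95% lower. In ethanol culture 0 rose and 2 fell, where 38.6% passed, 24% higher and 14.6% lower. In DMSO culture, Tfap2c at 1.5 and 11.5 against 97.6 and 105.3 in E16 vehicle fell by 2.42 (SE 0.50, adjusted p = 0.00272). Alpl at 4.4 and 3.2 against 60.9 and 92.9 fell by 2.21 (SE 0.37, adjusted p = 0.000688). Both held without each array in turn.

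In the same comparison, Sox15 at 28.5 and 36.3 against 65.9 and 90.2 in E16 vehicle fell by 0.95 (adjusted p = 0.0166), and Sox2 at 27.8 and 82.7 against 157.3 and 161.6 fell by 1.41 (adjusted p = 0.0423). The Sox15 call was lost without either DMSO array or E16 vehicle replicate 2, and the Sox2 call without DMSO culture replicate 1 or either E16 array. Neither other Sox2 probe set passed there. Kit read 12.2 and 30.2 in DMSO culture and 10.2 and 34.8 in E16 vehicle, a difference of -0.01 with a 95% interval of -0.78 to 0.76.

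In ethanol culture against E16 vehicle, Sox15 fell by 1.06 (SE 0.26, adjusted p = 0.00522), a call lost without E16 vehicle replicate 2 or ethanol culture replicate 2 (adjusted p of up to 0.0644). Ifitm3, at 1989.8 and 1931.7 against 3328.4 and 3469.3 in E16 vehicle, fell by 0.79 (SE 0.20, adjusted p = 0.00555). Relative to the median of all probe sets, which was 0.19 above E16 vehicle, they stood at -1.25 and -0.98. Tfap2c differed by -1.06 (adjusted p = 0.103) and Alpl by -0.93 (adjusted p = 0.0561). With quantile normalization Kit, Tfap2c and Alpl also passed, at -1.03, -1.47 and -1.38, and Sall4, uncalled in both, was at -0.03 in place of 0.31.

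**Figure D3:**
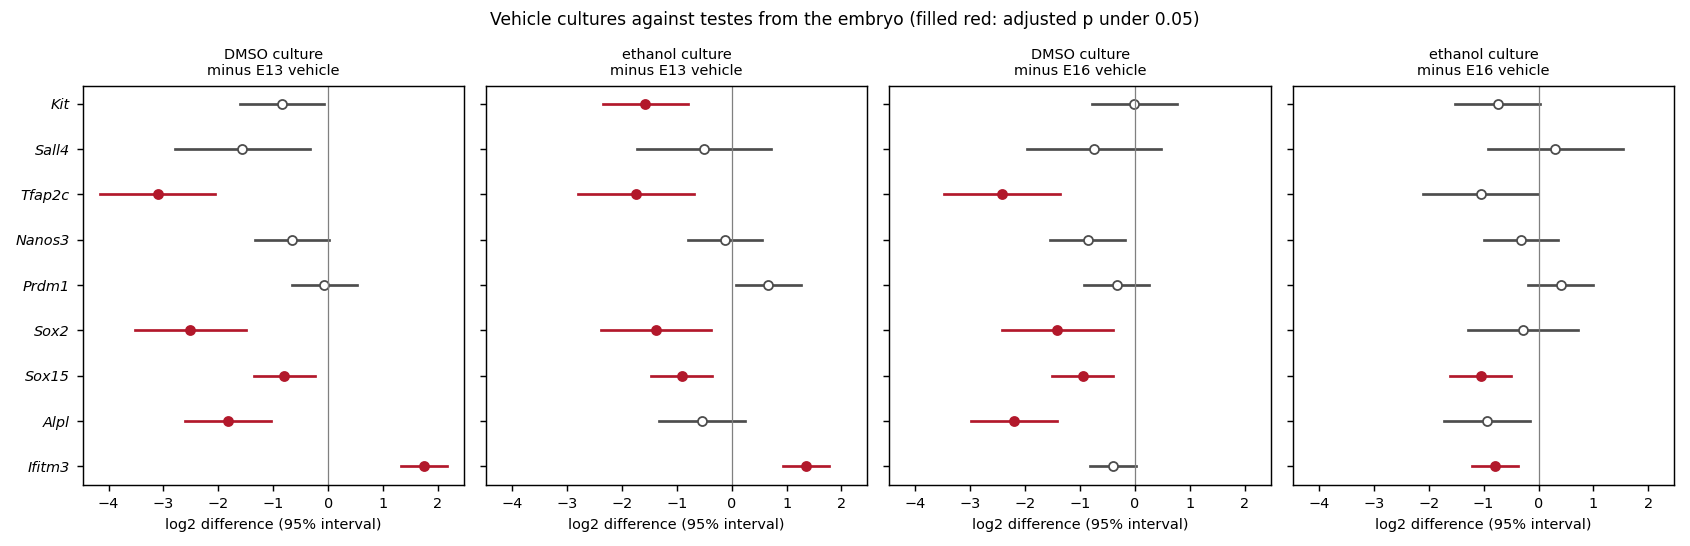
Log2 difference (point) with its 95% interval (line) of each vehicle culture from E13 vehicle and from E16 vehicle (2 arrays a group); filled red points passed an adjusted p of 0.05. Tfap2c lies at -3.11 in the first panel and Ifitm3 at 1.74, the lone member to the right of 0 there, while no member passes to the right of 0 against E16.

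Other germ cell genes gave a wider view of the cultures. Of 15 tested, 1 rose and 7 fell in DMSO culture against E16 vehicle (median -0.75), and 4 rose and 5 fell in ethanol culture (median -0.29). Sycp3 read 53.0 and 42.1 in DMSO culture and 79.5 and 118.3 in ethanol culture, against 540.2 and 1065.2 in E16 vehicle, and fell by 3.61 in DMSO culture (adjusted p = 8.83e-05) and fell by 2.78 in ethanol culture (adjusted p = 0.000336). Tex101, a germ cell surface glycoprotein, read 7.7 and 37.0 in DMSO culture and 111.9 and 82.2 in ethanol culture, against 285.4 and 547.7 in E16 vehicle, and fell by 3.54 in DMSO culture (adjusted p = 5.98e-05) and fell by 1.88 in ethanol culture (adjusted p = 0.00321). Sycp3 and Tex101 were thus lower in both vehicle cultures than at E16. Elavl2, an RNA-binding protein, read 806.6 and 912.9 in DMSO culture and 708.5 and 603.1 in ethanol culture, against 481.6 and 649.7 in E16 vehicle.

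Itga6, an integrin that germ cells share with epithelia, rose by 1.82 in DMSO culture (adjusted p = 0.00013) and by 1.93 in ethanol culture (adjusted p = 3.82e-05) against E16 vehicle. Against E13 vehicle, 3 other germ cell genes rose and 2 fell in DMSO culture, where Tex101 fell by 1.96 (adjusted p = 0.00484) and Lin28a, a repressor of let-7, fell by 1.34 (adjusted p = 0.0161). In ethanol culture 3 rose and 0 fell. Elavl2 rose by 2.36 in DMSO culture (adjusted p = 0.00141) and by 1.98 in ethanol culture (adjusted p = 0.00318).

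**Figure D4:**
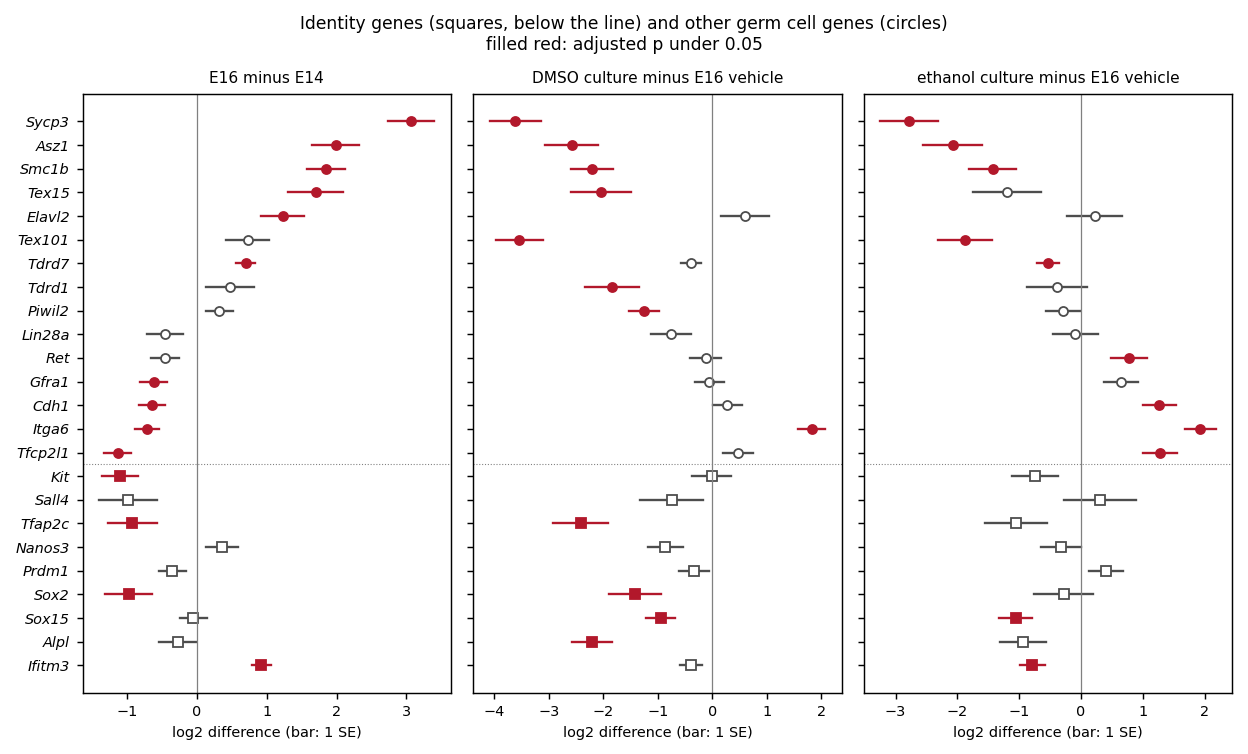
Log2 difference (point) with its SE (line) of the identity genes (squares, lower part) and other germ cell genes (circles, upper part) at E16 against E14 (4 arrays a day) and in the vehicle cultures against E16 vehicle (2 arrays a group); filled red symbols passed an adjusted p of 0.05. Sycp3 is the rightmost point in the first panel, at 3.07, and the leftmost in the others, at -3.61 and -2.78, while the identity genes run to the left in the second panel.

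Of 18 niche genes, 5 rose and 1 fell in DMSO culture and 7 rose and 2 fell in ethanol culture against E16 vehicle. Kitlg rose by 1.52 in DMSO culture (adjusted p = 0.000834) and by 1.16 in ethanol culture (adjusted p = 0.00271), and Cxcr4 rose by 1.14 in DMSO culture (adjusted p = 0.00136) and by 1.37 in ethanol culture (adjusted p = 0.000175). Bmp4, a ligand needed for germ cell specification in the mouse, fell by 1.33 in DMSO culture (adjusted p = 0.00262) and fell by 0.99 in ethanol culture (adjusted p = 0.00971). Cyp26b1 rose by 2.04 in DMSO culture (adjusted p = 0.00194) and by 1.70 in ethanol culture (adjusted p = 0.00357). Of 21 partners and targets, 2 rose and 4 fell in DMSO culture and 7 rose and 3 fell in ethanol culture. Etv4 rose by 1.29 in DMSO culture (adjusted p = 0.001) and by 1.26 in ethanol culture (adjusted p = 0.000633).

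Against E13 vehicle, 2 niche genes rose and 4 fell in DMSO culture, and 1 rose and 2 fell in ethanol culture. Bmp4 fell by 2.20 in DMSO culture (adjusted p = 6.07e-05) and fell by 1.85 in ethanol culture (adjusted p = 0.000171). Il6st, the signal-transducing receptor subunit shared by interleukin 6 and leukemia inhibitory factor, rose by 0.86 in DMSO culture (adjusted p = 0.00169) and by 1.18 in ethanol culture (adjusted p = 9.85e-05). Of the partners and targets, 3 rose and 10 fell in DMSO culture, and 2 rose and 6 fell in ethanol culture. Mycn fell by 1.27 in DMSO culture (adjusted p = 0.000139) and fell by 0.84 in ethanol culture (adjusted p = 0.00213), and Dusp6 fell by 0.90 in DMSO culture (adjusted p = 0.000618) and fell by 1.19 in ethanol culture (adjusted p = 4.64e-05).

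Sertoli cell genes were present in the cultures, with a summed signal of 13369.0 to 16968.5 in DMSO culture and 11345.0 to 11488.5 in ethanol culture, against 6376.9 to 9216.6 in E13 vehicle. The neural sum was 615.6 to 629.2 in DMSO culture and 1114.2 to 1174.5 in ethanol culture, against 544.7 to 549.1 in E13 vehicle. The mesonephric sum was 988.6 to 1374.2 in DMSO culture and 1848.1 to 1877.3 in ethanol culture, against 2071.7 to 2713.1 in E13 vehicle. The Leydig cell sum was 6100.0 to 6297.9 in DMSO culture and 9658.8 to 10036.1 in ethanol culture, against 217.0 to 320.4 in E13 vehicle and 10467.3 to 18516.1 in E16 vehicle. The endothelial sum was 470.8 to 475.2 in DMSO culture and 969.2 to 1054.8 in ethanol culture, against 1020.0 to 1167.2 in E13 vehicle and 990.1 to 1121.8 in E16 vehicle. All 3 erythroid genes fell in both cultures against E16 vehicle, with a sum of 232.7 to 345.7 in DMSO culture and 1440.8 to 1498.7 in ethanol culture, against 622.3 to 4458.5 in E13 vehicle and 11768.7 to 17721.5 in E16 vehicle. In E16 vehicle the Sertoli sum was 10001.1 to 11043.2, the neural sum 218.1 to 281.4 and the mesonephric sum 1375.8 to 1428.2, below both cultures for the neural genes. Of the 2 tested melanocyte genes, 1 fell and 0 rose in each vehicle culture against E13 vehicle. Their sum was 80.7 to 83.1 in DMSO culture and 103.8 to 119.7 in ethanol culture, against 403.2 to 527.4 in E13 vehicle. Dct alone read 29.8 and 26.7 in DMSO culture and 61.4 and 48.7 in ethanol culture, against 490.1 and 342.0 in E13 vehicle. The 3′ to 5′ ratio of beta-actin was 2.89 to 3.12 in DMSO culture and at most 11.1 in ethanol culture, where no array of the set was below 9.08, against 1.98 and 3.47 in E13 vehicle. The part of these differences in those of the members was not tested.

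The compounds were compared with their vehicles in 5 comparisons of 2 arrays against 2, in a mean over the 3 days and in a test between the compounds. No member passed the threshold in any of them. Over all tested probe sets, the share that passed was 0.00444% for vinclozolin at E14, which is 1 probe set, and 0% in the other comparisons, among them vinclozolin at E13 and E16 and both cultures. At an unadjusted p under 0.05 there were 343 probe sets at E13, 1157 at E14, 1406 at E16, 855 for the mean, 537 for vinclozolin in culture and 891 for flutamide. If no probe set differed, a share of 0.05 of the 22526 tested would be expected there. The counts at E13, for the mean and in both cultures were below that share. At E13, arrays of the same number deviated together (correlation 0.602), which a fit without pairs counts as spread. In the comparisons of 2 arrays against 2 the intervals were wide, and a 2-fold change cannot be dismissed for many members. The mean over the 3 days uses all 12 in utero arrays, and its intervals were narrower. Among the lead probe sets, only that of Sall4 reached a 2-fold change there, at -0.03 to 1.39. The other tested Sox2 probe sets had intervals up to 1.00 and 1.31. A change on 1 day alone can be hidden in such a mean.

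At E13 the vinclozolin and vehicle arrays overlapped for all 9 members, with differences from -0.25 for Alpl to 0.22 for Prdm1. The narrowest interval was that of Ifitm3, from -0.31 to 0.53. At E14, 7 of 9 members were on average higher with vinclozolin, while E14 vehicle replicate 1 was the lowest array for 8. Sall4 read 269.0 and 349.8 with vinclozolin and 42.1 and 309.0 with vehicle, a difference of 1.23 (SE 0.58, unadjusted p = 0.0493, adjusted p = 0.928). Only without E14 vehicle replicate 2 did it pass, at 2.47 (adjusted p = 0.0276), and without E14 vehicle replicate 1 it was -0.01. Tfap2c and Sox2 differed by 0.94 and 0.86 (adjusted p = 0.928 each), and by -0.04 and -0.11 without E14 vehicle replicate 1.

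At E16, Kit had the largest difference of the members, with 50.5 and 75.2 in vinclozolin testes against 10.2 and 34.8 in vehicle testes. The groups did not overlap, but groups of 2 arrays often fail to overlap without any effect. The share of all probe sets without overlap was not computed. The difference was 1.09 (SE 0.36, 95% interval 0.32 to 1.86, unadjusted p = 0.0081), and it failed the adjustment over all probe sets (adjusted p = 0.642). Across the alternatives and the fits without 1 array its size ran from 0.56 to 1.65 and its adjusted p from 0.142 to 1. Sall4 read 89.8 and 196.4 against 35.6 and 94.9 and differed by 0.99 (adjusted p = 0.842). The other 7 members lay between -0.38 for Alpl and 0.27 for Prdm1.

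Averaged over the 3 days, the differences ran from -0.09 for Ifitm3 (95% interval -0.33 to 0.16) to 0.68 for Sall4 (-0.03 to 1.39), and 7 of 9 were positive. Without E14 vehicle replicate 1 the value of Sall4 was 0.26, that of Prdm1 was 0.18 in place of 0.32, and those of Tfap2c and Sox2 were -0.03 and -0.07 in place of 0.30 and 0.26. Without E14 vehicle replicate 2 that of Sall4 was 1.09 (adjusted p = 0.164), and those of Tfap2c and Sox2 were 0.62 and 0.58. A test of whether the effect differed between the days found no member with an adjusted p below 0.997. For Kit, at 0.18, -0.02 and 1.09 on the 3 days, its unadjusted p was 0.0983.

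In culture, vinclozolin was set against DMSO and flutamide against ethanol, at doses that differ. Kit read 31.3 and 37.9 with vinclozolin and 12.2 and 30.2 with DMSO, a difference of 0.48 (95% interval -0.29 to 1.25). With flutamide Kit read 17.3 and 34.2, against 6.1 and 5.5 with ethanol, a difference of 0.91 (95% interval 0.14 to 1.68, unadjusted p = 0.0237, adjusted p = 1). Kit arrays did not overlap in either experiment, which is frequent with 2 arrays against 2, and all 8 lay under the 40th percentile.

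Nanos3 read 52.5 and 60.1 with vinclozolin and 43.4 and 21.7 with DMSO, and 30.0 and 40.6 with flutamide and 46.9 and 59.9 with ethanol. It was on opposite sides of its vehicle in the 2 experiments, by 0.61 and by -0.44. The difference between the compound effects was 1.05 (SE 0.45, unadjusted p = 0.0337, adjusted p = 1). For the other 8 members this difference lay between -0.42 for Kit and 0.58 for Sox2, with an interval for Ifitm3 of -0.60 to 0.59. Ifitm3 itself differed by 0.02 with vinclozolin (-0.40 to 0.44) and by 0.03 with flutamide (-0.39 to 0.44). For every other member the intervals were wider.

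**Figure D5:**
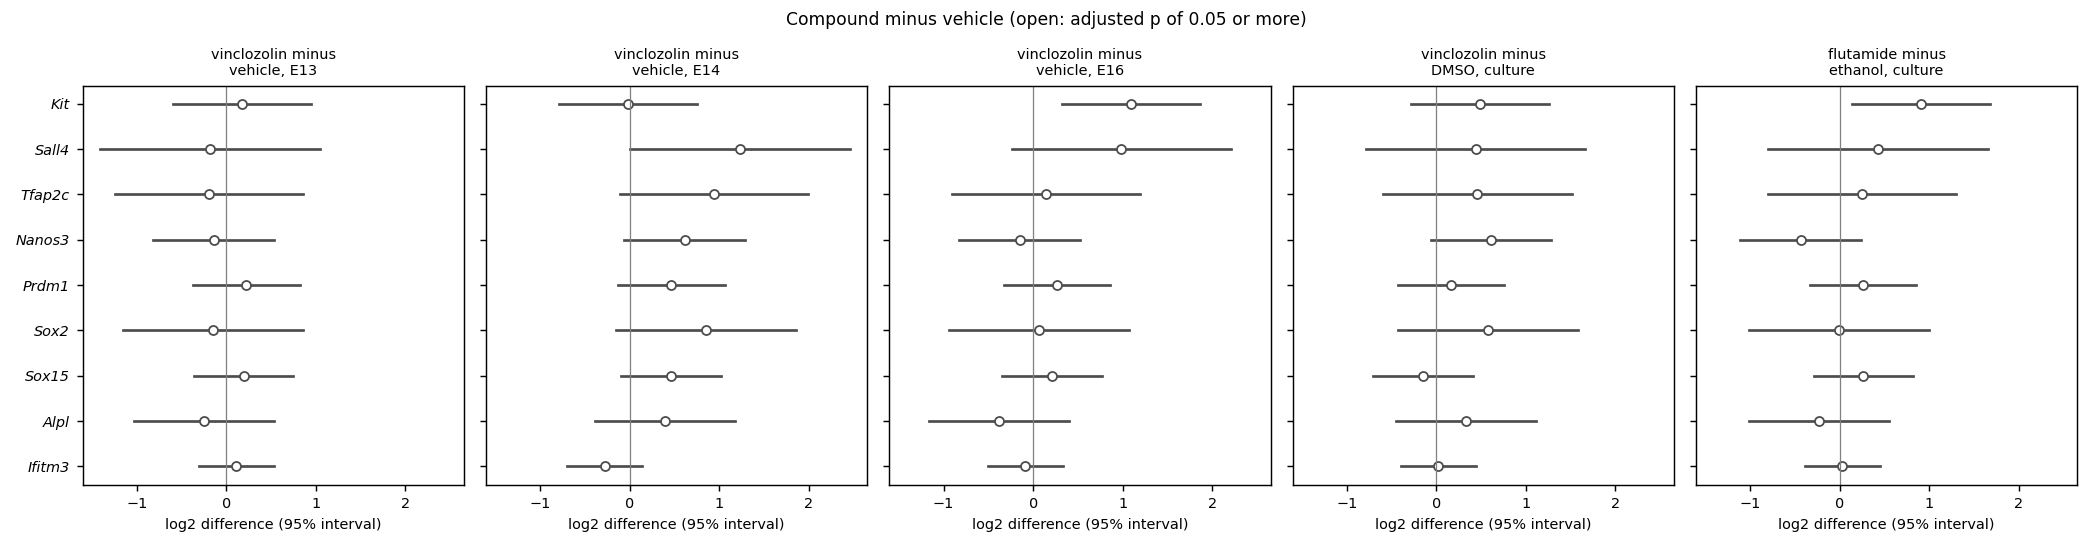
Log2 difference (point) of each compound from its vehicle with its 95% interval (line), 2 arrays a group, on 1 shared axis; no point is filled, since none passed an adjusted p of 0.05. Kit stands at 1.09 at E16 and 0.91 with flutamide, where its interval lies above 0, and Ifitm3 has the shortest lines.

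The other lists gave 0 calls in each of these comparisons as well, with medians for the other germ cell genes of 0.20, 0.18 and 0.45 at E13, E14 and E16, 0.13 with vinclozolin in culture and 0.08 with flutamide. Beside the Kit difference at E16, the melanocyte sum was 110.2 to 137.3 with vinclozolin and 126.2 to 146.7 with vehicle, and Cpa3 read 38.9 to 58.6 with vinclozolin and 58.1 to 63.4 with vehicle. These values overlapped between the groups. The Leydig cell sum was 18931.6 to 20581.3 with vinclozolin and 10467.3 to 18516.1 with vehicle, and its part in the Kit difference was not tested.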

How the data were processed

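RNA was measured on oligonucleotide arrays of the rat genome. The authors deposited signal intensity on a linear scale, made with MAS5 and, for the cultures, GCOS, per the submitters' processing notes, which name no versions. The trimmed mean (2% left out at each end) was 210.1 on all 12 in utero arrays, 218.1 in the vinclozolin culture set and 107 in the flutamide culture set. All arrays were therefore scaled to the first (factors 1, 0.963 and 1.963), 16 was added and log2 taken.

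Of 31099 probe sets, 57 controls were left out, and 22526 reached the 40th percentile of their array on at least 2 arrays and were tested. Gene names came from the platform annotation. Of 31042 probe sets, 20826 had 1 symbol, 436 several and 9780 none. The probe set of highest mean log2 value stood for a gene.

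Differences were estimated by limma 3.58.1 under R 4.3.3 in a single model of the 10 group means over all 20 arrays (10 residual and 6.83 prior degrees of freedom), with a variance trend on mean signal. All p-values are two-sided and adjusted by Benjamini-Hochberg over all tested probe sets, with a threshold of 0.05, and intervals are at 95%. The number of arrays limits the precision. Beside the 9 genes, which are always named, lists covered other germ cell genes, niche and signalling genes, partners and targets of the member factors, and markers of neural, melanocyte, mast, mesonephric, Sertoli, Leydig, endothelial, surface epithelial and erythroid cells. In each comparison the list genes named were drawn from the 4 of smallest p past the threshold, plus Kitlg, and a gene so named was followed into the other comparisons. Fos, Dct, Sox10, Cpa3, Ifitm1, Ifitm2 and Lin28a were picked with their values in view, and Pmel was named beside Dct. The members and lists were chosen with earlier results of these data known.

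The fit was tested on simulated data of 22526 probe sets. For DMSO culture against E13 vehicle it recovered 31% of changes of 2-fold and 91% of 4-fold, and for vinclozolin in culture 38% and 89%. For E16 against E13 it recovered 71% and 96%, and for vinclozolin averaged over the 3 days 83% and 100%. Only 100 probe sets were changed at each size, with independent noise. In the data 4610 passed for DMSO culture against E13 vehicle, so these shares need not hold there. The changed probe sets were drawn from all tested ones, whose median SE was 0.25 in comparisons of 2 arrays against 2. Every member but Ifitm3 had a larger SE there, from 0.26 for Sox15 to 0.58 for Sall4. The shares therefore need not hold for the members either.

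The alternatives were the intensities as deposited, quantile normalization, a pseudocount of 1 or of 64, dropping the filter or setting it at the median, no variance trend, only the arrays of a comparison, 1 treatment only, leaving out both E13 arrays numbered 1, the replicate number as a block, other probe sets, and leaving out each array in turn, in which case the array left alone in its group is taken to have the spread of the rest. Added after the data were seen were the leaving out of both E13 arrays numbered 1 together with E14 vehicle replicate 1 and, at E16, crossed replicate numbers. Same-numbered arrays of a treatment and its vehicle deviated from their group means with correlations of 0.602 at E13, -0.055 at E14, -0.112 at E16, 0.117 for vinclozolin in culture and -0.004 for flutamide. In the cultures the opposite gonads formed pairs, but the labels do not say that a number marks a shared embryo or batch. The numbers were therefore not taken as pairs in the main fit.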

Additional observations from a re-analysis of the deposited data

How the results depend on the processing

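Of 1936 member values recomputed under the alternatives, 1830 kept their call, 75 lost it, 30 gained one, and 1 value that passed in the main setting turned its direction. Another 110 values that did not pass changed sign. The called one was Sox2 in DMSO culture against E16 vehicle, at 0.11 (adjusted p = 0.91) with the probe set that read 4.6 to 6.0 at E16. For E14 against E13 (3 members), 1 passed with quantile normalization, with only the arrays of the comparison, with vehicle arrays alone and with vinclozolin arrays alone. For E16 against E14 (4 members), 2 passed with quantile normalization and with either treatment alone. For E16 against E13 (1 member), 2 passed, Sox2 being added, with the intensities as deposited, a pseudocount of 64, the filter at the median, only the arrays of the comparison, and without the 2 E13 arrays numbered 1 and E14 vehicle replicate 1 together. For ethanol culture against E13 vehicle (5 members), 3 passed with a pseudocount of 1. For ethanol culture against E16 vehicle (2 members), 5 passed with quantile normalization and 4 with only the arrays of the comparison. The cause of these shifts was not tested.

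With each array left out in turn, the members called ranged from 1 to 5 for E14 against E13, 2 to 6 for E16 against E14, 1 to 2 for E16 against E13, 0 to 1 for vinclozolin at E14, 4 to 5 for DMSO culture and 2 to 5 for ethanol culture against E13 vehicle, and 2 to 3 for DMSO culture and 1 to 3 for ethanol culture against E16 vehicle. The lone call at E14 was Sall4. Over all probe sets, calls ranged under the other alternatives from 566 to 5643 for E14 against E13 (5451), 4747 to 9339 for E16 against E14 (9131), 1329 to 4223 for E16 against E13 (4056) and 1776 to 4606 for DMSO culture against E13 vehicle (4610). They ranged from 0 to 3 for vinclozolin at E14, 0 to 5 at E16 and 0 to 17 for flutamide. Leaving out arrays gave up to 230 for vinclozolin at E14.

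With the replicate block, 0 members passed in each compound comparison, as without it. Over all probe sets 3 passed at E14 and 1 at E16 with the block, and 5 at E16 with its numbers crossed. The block was not run across days or between culture and embryo, nor the intensities as deposited across array sets. Signals near the 40th percentile limit what can be said of Kit, Nanos3, Sox15 and Alpl.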

Other observations

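Over the 12 in utero arrays, the genes whose log2 signals ran most like each member were listed as a description. These arrays share stages and the array that stood apart at E14, so likeness over them says nothing of shared function. Tfap2c ran most like Ngfr (Pearson r 0.96), a receptor of nerve growth factor, and also like Nr5a1 (0.95), a factor of the gonadal soma. Sox2 ran most like Fxyd6 (0.95) and next like Tfap2c (0.94). Ifitm3 ran most like Ifi27 (0.98), another interferon-induced gene, and Tgfb3 (0.98). Kit ran most like Top3a (0.96), Prdm1 like Plxnc1 (0.96), Sox15 like Drc3 (0.93), Nanos3 like Ppa1 (0.93), Sall4 like Cep85 (0.92) and Alpl like Inf2 (0.90).

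Among the members themselves, the correlations over these arrays were 0.94 for Tfap2c with Sox2, 0.85 for Prdm1 with Sox15 and 0.82 for Tfap2c with Sall4. Ifitm3 ran against Sox2 (-0.63) and Tfap2c (-0.38), and Nanos3 against Kit (-0.45).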
